A study of Mus musculus with 15 samples.

Results

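TGF-beta signalling was followed through 9 genes, among them the ligand Tgfb1 and the receptor genes Tgfbr1 and Tgfbr2. The others were the signal transducers Smad2, Smad3 and Smad4, the inhibitory Smad7, and the co-repressor genes Ski and Skil. All 9 were chosen by symbol for their place in the pathway, with earlier results of these data known. They are 9 of the 53546 genes in the count table, and all 9 passed the filter on low counts. The cells were CD206+ macrophages sorted from the dura mater, the outer membrane around the brain. All mice were C57BL/6J with the genotype Cx3cr1GFP/wt, so every group carried a GFP reporter on one copy of Cx3cr1, and none was treated. Libraries came from E14.5 embryos and from pups and adults at postnatal day 3 (P3), 10 (P10), 21 (P21) and 56 (P56), with 3 libraries at each of the 5 ages. The sources used here do not say whether a library came from 1 animal or from a pool, nor the sex of the mice, so p-values measure only the spread between these libraries. The labels place P56 in a second sequencing project, so age and project cannot be told apart wherever P56 is compared with a younger age.

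TGF-beta is secreted in a latent form and must be released before it binds a complex of the type II receptor (Tgfbr2) and the type I receptor (Tgfbr1). The activated type I receptor phosphorylates SMAD2 and SMAD3, which join SMAD4 and enter the nucleus to regulate transcription. SMAD7 blocks the receptor, and SKI and SKIL (also called SnoN) bind the SMAD complex and recruit co-repressors; Smad7 and Skil are themselves known target genes of the pathway, and SnoN protein is known to be degraded when it signals. In the brain, microglia, the macrophages of the tissue itself, need TGF-beta signalling to keep their identity.

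The regions upstream of the start sites of both receptor genes are shown because these genes form one complex and their counts were compared within each library. Of the 9 genes, 5 were matched in the RefSeq promoter table (build GRCm38.p6). The 250 bases before the start site of Tgfbr2 lie at chr9:116175364-116175613 on the minus strand, and those before the first start site of Tgfbr1 at chr4:47352972-47353221 on the plus strand. Capitals mark matches, on either strand, to CAGAC (the SMAD box), GGGCGG (the GC box) and CCAAT (the CCAAT box).
Tgfbr2: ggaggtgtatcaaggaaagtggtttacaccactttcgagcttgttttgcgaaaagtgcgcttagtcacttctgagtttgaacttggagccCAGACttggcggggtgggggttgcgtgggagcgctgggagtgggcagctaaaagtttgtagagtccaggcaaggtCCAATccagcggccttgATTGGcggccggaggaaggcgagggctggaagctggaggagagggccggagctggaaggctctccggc
Tgfbr1: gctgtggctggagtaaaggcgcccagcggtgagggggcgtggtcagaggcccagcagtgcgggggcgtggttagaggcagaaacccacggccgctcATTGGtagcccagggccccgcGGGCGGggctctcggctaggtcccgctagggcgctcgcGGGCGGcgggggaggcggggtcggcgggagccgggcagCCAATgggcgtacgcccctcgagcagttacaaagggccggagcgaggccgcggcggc
The Tgfbr2 window holds 1 SMAD box, whose first base is 160 bases before the start, 2 CCAAT boxes and no GC box. The Tgfbr1 window holds 2 GC boxes and 2 CCAAT boxes and no SMAD box. The second start site of Tgfbr1 in the table, not printed, has 1 SMAD box and neither a GC box nor a CCAAT box, so the difference from Tgfbr2 holds for the first start site only. Among all 32851 windows of 250 bases in the table, 42.2% hold CAGAC, 32.7% hold GGGCGG and 33.8% hold CCAAT, so each of these matches is common. The matches describe the letters only.

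Library totals ran from 17550170 to 30614583 counts, and 11254 to 13654 genes had at least 10 counts. Mrc1, which encodes the sorted marker CD206, Csf1r and Adgre1 were at 1224 CPM or more in every library (CPM, read counts relative to the library total, here scaled by TMM factors), and the summed level of 18 border macrophage markers was 33330 to 55960 CPM of the library total. Cx3cr1, which carried the GFP reporter on one copy, was lower, at 310 to 868 CPM. Its mean was 712.5 ± 145.7 CPM (SD, n = 3) at E14.5 and 383.3 ± 79.92 at P10. In the edgeR test for any difference from E14.5 to P21 its adjusted p was 0.0334. P21 replicate 2 stood apart from the other libraries on the second principal component. Fibroblast markers varied with age: the sum of 14 of them was 76.5 to 742 CPM at E14.5, 592 to 2550 (P3), 774 to 2883 (P10), 1160 to 2007 (P21) and 163 to 252 (P56) afterwards. Mast cell markers summed to 2.11 to 126 at E14.5, then 638 to 1765 (P3), 176 to 436 (P10), 4.05 to 11.4 (P21) and 10.2 to 292 (P56). In bulk RNA, fewer cells of a type and less RNA per cell cannot be told apart.

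Of the 9 genes, Skil and Tgfbr2 changed with age and the other 7 passed no test. Skil fell between E14.5 and P3 and rose between P10 and P21, and both Skil and Tgfbr2 were higher at P21 than at E14.5. Differences were tested with edgeR's quasi-likelihood test with Benjamini-Hochberg adjustment over all tested genes, and a gene was called at an adjusted p under 0.05. From E14.5 to P3, 1 of 9 genes was called (Skil, lower), against 2.06% of all 14683 tested genes (0.388% lower). From P10 to P21, 1 of 9 was called (Skil, higher), against 1.14% (0.96% higher). From E14.5 to P21, 2 of 9 were called, both higher, against 12.2% of all genes (7.81% higher). In the test for any difference among E14.5, P3, P10 and P21, 2 of 9 were called against 12.3% of 14287 genes. Counts of 1 or 2 among 9 are too small to set these genes apart from the background.

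No gene of the 9 was called from P3 to P10 (edgeR, 0.402% of all genes called, 0.341% higher and 0.0613% lower) or from P21 to P56 (0.272% called, 0.102% higher and 0.17% lower). At an unadjusted p under 0.05, edgeR gave 1 of 9 from P3 to P10 and 3 of 9 from P21 to P56. The share of all genes under that threshold was not computed, so these 2 counts have no background to be read against. DESeq2 called 0 of 9 in both steps, against 2.28% and 3.57% of all genes. The 3 libraries of one age lay wholly above or below those of the other for 1 of 9 genes from E14.5 to P3 (26.4% of all genes), 1 from P3 to P10 (19.2%), 3 from P10 to P21 (17.7%), 2 from P21 to P56 (13%) and 3 from E14.5 to P21 (33.4%). The median log2 change of the 9 genes was -0.38, -0.16, 0.48, 0.22 and 0.00 in the same order, beside medians over all tested genes between -0.01 and 0.01. Both comparisons with E14.5 use the same 3 embryonic libraries, and neighbouring steps share the age between them.

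**Figure D1:**
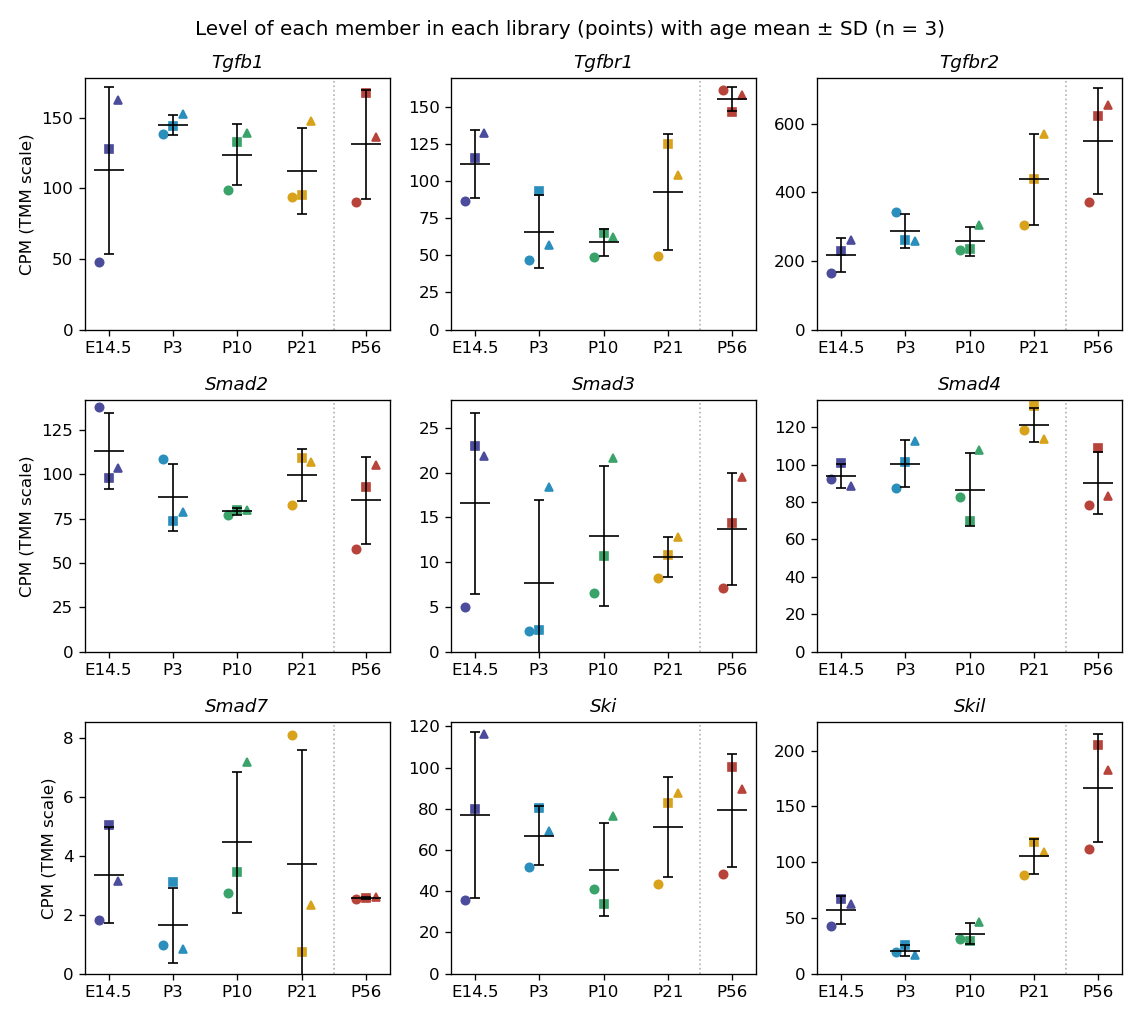
Level of each of the 9 genes in CPM on the TMM scale (vertical axes, each starting at 0) at 5 ages (horizontal axis); points are libraries (circle, square and triangle in the order of the replicate numbers) and bars the mean ± SD of 3 libraries. The dotted line separates P56, from the second sequencing project; Skil has its lowest libraries at P3 and its highest at P56.

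**Figure D2:**
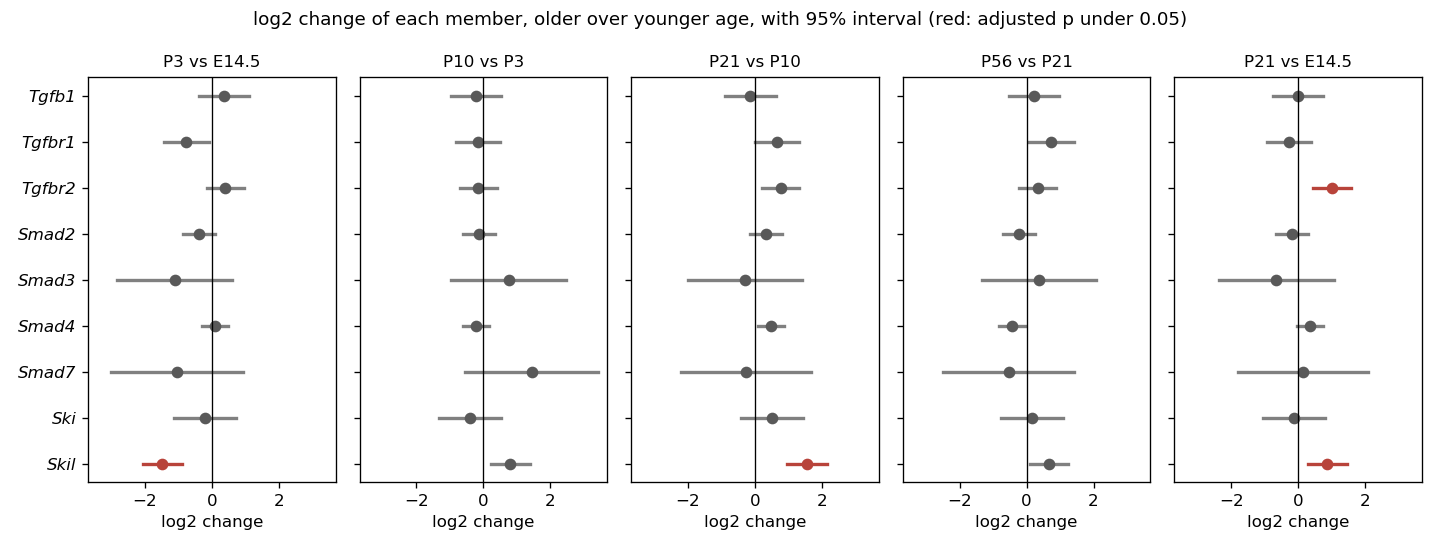
log2 change of each gene, older over younger age, with its 95% interval from the edgeR fit; red marks an adjusted p under 0.05. Skil is red from E14.5 to P3, from P10 to P21 and from E14.5 to P21, and Tgfbr2 from E14.5 to P21; the intervals of Smad3 and Smad7 are the widest of the 9 genes in every comparison.

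Tgfb1, the ligand, passed no test. Its age means ran from 112 ± 30.5 CPM (SD, n = 3) at P21 to 145 ± 7.10 at P3, and every pair of neighbouring ages in that order overlapped. Single libraries spread more than the ages, from 47.6 CPM in E14.5 replicate 1 to 167 in P56 replicate 5. From E14.5 to P21 its log2 change was 0.00 ± 0.35 (SE), with a 95% interval from -0.76 to 0.75, and its adjusted p in the edgeR test was 0.998.

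Tgfbr2, the receptor that binds the ligand first, was lowest at E14.5 and rose by P21. Its 3 libraries measured 164, 228 and 260 CPM at E14.5, then 344, 261 and 258 at P3 and 231, 236 and 306 at P10. They reached 305, 440 and 569 CPM at P21 and 371, 625 and 655 at P56. All P21 libraries were above all E14.5 libraries, while neighbouring ages overlapped. From E14.5 to P21 the log2 change was 1.01 ± 0.26 (SE; adjusted p = 0.0198, edgeR), with a 95% interval from 0.45 to 1.57. From P10 to P21 it was 0.76 ± 0.26 and missed the threshold in edgeR (adjusted p = 0.191), while DESeq2 gave an adjusted p of 0.049. The steps from E14.5 to P3 (0.40 ± 0.26) and from P3 to P10 (-0.16 ± 0.26) were not called, and from P21 to P56 the change was 0.33 ± 0.26 (adjusted p = 0.69). In the test over the 4 ages from E14.5 to P21 the adjusted p of Tgfbr2 was 0.0484, and it missed the threshold in 14 of 22 other settings.

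The Tgfbr2 rise from E14.5 to P21 no longer passed when E14.5 replicate 1 was left out (adjusted p = 0.0992, edgeR), nor without E14.5 replicate 2 (0.0635), P21 replicate 2 (0.0514) or P21 replicate 3 (0.0809), with log2 changes of 0.77 to 1.04. It was also lost with the log2 sum of fibroblast markers as a covariate, at a log2 change of 0.91 (adjusted p = 0.295); in that fit 3% of all genes were called in this comparison, against 12.2% without the covariate.

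Tgfbr1, the kinase that Tgfbr2 activates, had its lowest means at P10 and P3. Its libraries measured 86.6, 116 and 132 CPM at E14.5, then 47.0, 93.5 and 56.8 at P3 and 48.6, 65.3 and 62.1 at P10. In older mice they measured 49.4, 125 and 104 CPM (P21) and 161, 146 and 158 CPM (P56). The P56 libraries were the highest of all and overlapped no other age, and P21 replicate 1 was as low as the P10 libraries. No difference was called: the log2 change was -0.76 ± 0.31 (SE) from E14.5 to P3 (adjusted p = 0.306), 0.66 ± 0.31 from P10 to P21 (0.348) and 0.74 ± 0.31 from P21 to P56 (0.376), by edgeR.

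Smad4, the shared partner of the receptor-activated SMADs, was the steadiest of the 9 genes between libraries, with a fold of 1.88 between its lowest and highest library. Its mean was 94.0 ± 6.33 CPM (SD, n = 3) at E14.5, then 101 ± 12.5 (P3), 86.7 ± 19.5 (P10), 121 ± 8.91 (P21) and 90.3 ± 16.5 (P56). The P21 libraries, at 118, 131 and 114 CPM, lay above every library of the other 4 ages. No test called this difference: the log2 change was 0.48 ± 0.18 (SE) from P10 to P21 (adjusted p = 0.237, edgeR) and -0.42 ± 0.18 from P21 to P56 (0.381).

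Smad2 and Smad3, the SMADs that the receptor phosphorylates, passed no test. Smad2 means ran from 79.0 ± 1.81 CPM (SD, n = 3) at P10 to 113 ± 21.6 at E14.5, and all 3 P21 libraries (82.7, 109 and 107) were above all 3 P10 libraries (76.9, 80.0 and 80.1). The log2 change from P10 to P21 was 0.33 ± 0.23 (SE; adjusted p = 0.559, edgeR). Smad3 was much lower in counts, with 47 to 628 reads per library, and its libraries at one age could differ several fold. At P3 its libraries measured 2.26, 2.43 and 18.4 CPM, and at E14.5 4.95, 23.0 and 21.9. Its median coefficient of variation within an age was 60.3%, and its log2 change from E14.5 to P3 was -1.11 with a 95% interval from -2.84 to 0.61.

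Smad7, the inhibitory SMAD, had the fewest reads of the 9 genes, 14 to 166 per library. Its levels ran from 0.730 CPM in P21 replicate 2 to 8.12 CPM in P21 replicate 1, so its lowest and its highest library were of one age. No age difference in Smad7 was detectable at this depth and spread: from E14.5 to P21 the log2 change was 0.16 with a 95% interval from -1.79 to 2.10 (adjusted p = 0.943, edgeR).

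Ski and Skil encode related co-repressors, and only Skil was called in any test. Skil measured 42.7, 66.7 and 62.3 CPM at E14.5, then only 19.3, 25.9 and 16.4 at P3 and 31.4, 29.3 and 46.7 at P10. It reached 88.0, 118 and 109 CPM at P21 and 112, 206 and 182 at P56. The P3 libraries were below all others, and the P21 and P56 libraries were above all libraries of the 3 younger ages. From E14.5 to P3 the log2 change was -1.48 ± 0.27 (SE; adjusted p = 0.0118, edgeR), with all 3 P3 libraries lower. From P10 to P21 it was 1.55 ± 0.27 (adjusted p = 0.0178), with all 3 P21 libraries higher, and from E14.5 to P21 it was 0.88 ± 0.27 (adjusted p = 0.049).

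The recovery of Skil from P3 to P10, 0.80 ± 0.27 on the log2 scale, was not called (adjusted p = 0.322, edgeR), although its libraries did not overlap. The step from P21 to P56 was 0.67 ± 0.27 (adjusted p = 0.357). In the test over the 4 ages from E14.5 to P21 the adjusted p of Skil was 0.000624, and over 22 other settings of that test it ran from 3.54e-15 to 0.00316.

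Leaving out single libraries changed the size of the Skil steps little, with log2 changes of -1.68 to -1.34 for the fall to P3 and 1.43 to 1.79 for the rise from P10 to P21, while some adjusted p values crossed the threshold. The fall to P3 no longer passed when E14.5 replicate 2 was left out (adjusted p = 0.0632, edgeR), nor without P3 replicate 1 (0.0571) or P3 replicate 3 (0.0695), and the rise from P10 to P21 did not pass without P10 replicate 1 (0.108), P10 replicate 2 (0.0971) or P21 replicate 2 (0.0579). With the fibroblast covariate the fall to P3 was -1.71 (adjusted p = 0.144, in a fit that called 0.204% of all genes there) and the rise from P10 to P21 was 1.58 (adjusted p = 0.0259). From E14.5 to P21 the call was lost without any one of the 6 libraries (adjusted p 0.0594 to 0.185) and with the fibroblast covariate, at 0.63 (adjusted p = 0.57). Mast cell markers were highest at P3, where Skil was lowest. Osteoclast markers were higher at P3 and P10 than at the other ages. The sum of 8 of them was 131 to 601 CPM of the library total at E14.5 and 885 to 1396 at P3. It was 924 to 1910 at P10, 188.5 to 273 at P21 and 80.9 to 403 at P56. The sum of 9 dendritic cell markers, like Skil, was lowest at P3 and highest at P21 and P56. It was 62.6 to 74.1 CPM of the library total at E14.5, then 46.0 to 54.1 (P3), 81.5 to 106 (P10), 169 to 285 (P21) and 201 to 378 (P56). At P10 this sum was above E14.5 in all libraries, while the Skil mean was lower than at E14.5 (35.8 against 57.3 CPM). Clec9a was at 0 in all libraries of 4 of the 5 ages, and Xcr1 was at 0 at P21. Siglech, on this list and on the microglia list, took a large part of the dendritic cell sum at P21 and P56. On the TMM scale it measured 38.6 ± 5.70 CPM (SD, n = 3) at E14.5, 13.8 ± 7.97 (P3) and 48.0 ± 15.9 (P10). It reached 146 ± 20.4 at P21 and 204 ± 91.8 at P56. The sum without Siglech was not computed. The sum of 8 microglia markers was 430 to 565 at E14.5, then 362 to 457 (P3), 447 to 567 (P10), 635 to 696 (P21) and 574 to 718 (P56). The sum of dividing cell markers was 1509 to 1771 (E14.5) against 246 to 451 (P21). Of the 8, 7 were called lower at P21 (edgeR), against 4.37% of all genes. The part of these cell types in the Skil and Tgfbr2 results was not tested.

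Ski, in contrast to Skil, had overlapping libraries at all neighbouring ages in the order of its means. Its libraries measured 35.6, 79.8 and 116 CPM at E14.5, then 51.7, 80.4 and 69.0 at P3 and 41.1, 33.9 and 76.5 at P10. In older mice they measured 43.4, 82.7 and 87.7 CPM (P21) and 48.3, 100 and 89.5 CPM (P56). Its log2 change was -0.20 ± 0.43 (SE) from E14.5 to P3 (adjusted p = 0.934) and 0.50 ± 0.43 from P10 to P21 (adjusted p = 0.683), by edgeR.

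Ratios of counts within a library do not depend on its total or its scaling. They are ratios of reads, not of molecules, since the genes differ in length. The ratios below were chosen after the values were seen and are given as a description, with no test. The Skil to Ski ratio was 1.20, 0.836 and 0.537 at E14.5, then 0.374, 0.323 and 0.238 (P3), 0.763, 0.864 and 0.611 (P10) and 2.03, 1.43 and 1.24 (P21). It was lowest at P3 and highest at P21, without overlap with the other 3 ages in either case. At P56 it was 2.14 ± 0.16 (SD, n = 3).

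The Tgfbr2 to Tgfbr1 ratio was 1.89, 1.97 and 1.97 at E14.5, then 7.32, 2.80 and 4.54 (P3), 4.76, 3.62 and 4.93 (P10) and 6.18, 3.52 and 5.48 (P21). All E14.5 libraries were below all libraries of the next 3 ages. At P56 the ratio was 2.30, 4.27 and 4.14. The Tgfb1 to Tgfbr2 ratio was 0.491 ± 0.177 (SD, n = 3) at E14.5, then 0.514 ± 0.0995 (P3), 0.482 ± 0.0713 (P10) and 0.261 ± 0.0454 (P21). The Smad3 to Smad2 ratio ranged from 0.0208 to 0.271 and overlapped between neighbouring ages up to P21.

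**Figure D3:**
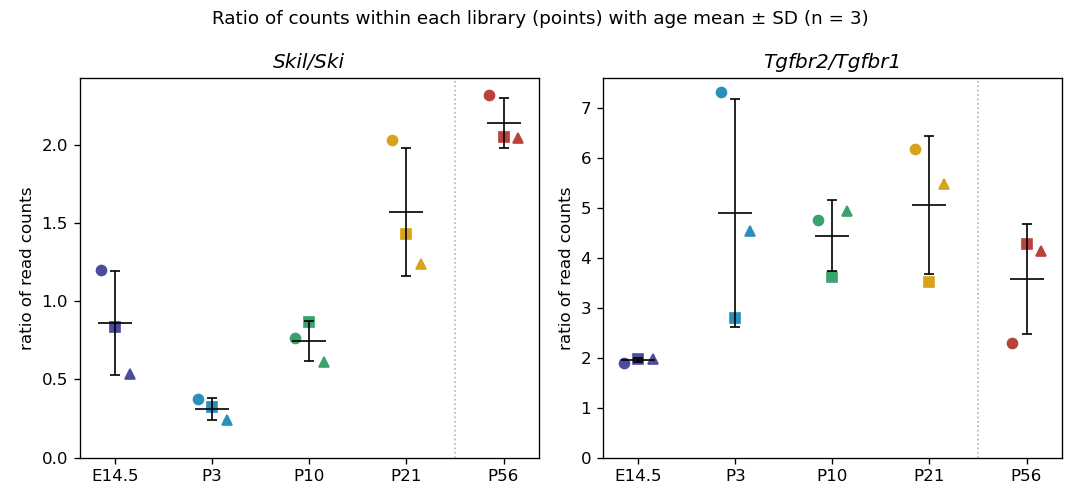
Ratio of read counts of Skil to Ski (left) and of Tgfbr2 to Tgfbr1 (right) in each library (points) at 5 ages, with the mean ± SD of 3 libraries; the vertical axes start at 0. The Skil to Ski ratio is lowest at P3, and the Tgfbr2 to Tgfbr1 ratio lies between 1.89 and 1.97 in the 3 E14.5 libraries.

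Levels of different genes were compared per kilobase of exon, with lengths from GENCODE M21. Tgfbr2 ranked first of the 9 genes at all 5 ages, with 26.6 ± 6.01 CPM per kb (SD, n = 3) at E14.5 and 67.2 ± 19.0 at P56. At E14.5 it overlapped Smad4 (25.3 ± 1.70), and at the later ages its libraries were above those of the gene next in mean, although at P10 the highest Smad4 library lay above the lowest Tgfbr2 library. Tgfb1 and Smad4 followed at every age, at 22.3 to 28.7 and 23.4 to 32.6 CPM per kb. Smad3 and Smad7 ranked last at every age, at 1.39 to 2.99 and 0.361 to 0.985 CPM per kb. Skil ranked below Smad2 at E14.5, P3, P10 and P21 and above Ski and Smad2 at P56, where it overlapped Ski (17.2 ± 5.02 and 14.3 ± 4.93 CPM per kb).

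**Figure D4:**
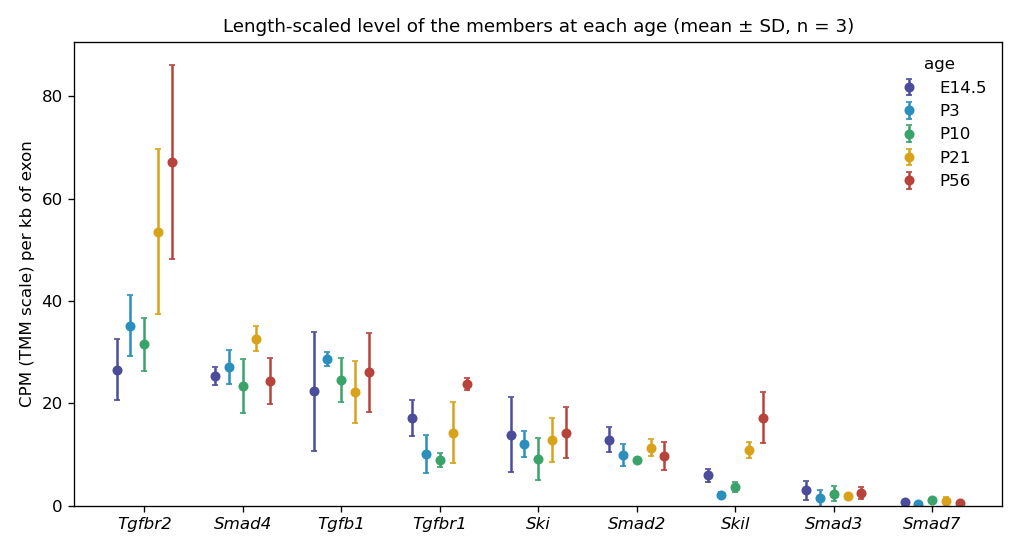
Level per kilobase of exon (CPM on the TMM scale per kb, vertical axis) of the 9 genes in the order of their mean over 15 libraries, coloured by age, as mean ± SD of 3 libraries. Tgfbr2 is highest at each age and Smad7 lowest.

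The genes whose levels ran most like the called members were taken from 6441 genes with a mean of at least 20 CPM, by Pearson r of log2 CPM over the 15 libraries, which share age and depth. For Tgfbr2 they were Rassf2 (r = 0.975), Adgre1 (0.926), which encodes the macrophage marker F4/80, and Aldh2 (0.923). Rassf2 measured 77.4 ± 22.1 CPM (SD, n = 3) at E14.5 and 177 ± 69.7 at P21. For Skil they were Siglech (0.941), a lectin gene of microglia and plasmacytoid dendritic cells that is on both of those marker lists, Itgb5 (0.915), an integrin subunit, and Trib1 (0.913). Siglech, like Skil, had its lowest mean at P3, at 13.8 ± 7.97 CPM, against 38.6 ± 5.70 at E14.5 and 146 ± 20.4 at P21.

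In some libraries most of the 9 genes were the lowest or the highest of their age, while others were mixed. P3 replicate 3, for example, was lowest for 3 genes and highest for 3. P56 replicate 4 was the lowest of its age for 8 of the 9 genes (43.0% of all tested genes were lowest there), and E14.5 replicate 1 for 7 (43.1%) and P21 replicate 1 for 7 (36.6%). P10 replicate 3 was the highest of its age for 8 of the 9 (33.3% of all genes). Tgfbr1 was the exception at P56, where replicate 4 was the highest. In P56 replicate 4, Csf1r was at 3380 CPM against 8689 and 8593 in replicates 5 and 6, and Mrc1 at 1655 against 4006 and 3562. Monocyte markers there summed to 460 CPM of the library total, against 52.3 and 107. Whether the members moved together, and from what cause, was not tested.

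The rest of the pathway was described by 8 lists, with the span from E14.5 to P21 as the main comparison (edgeR; 7.81% of all genes were higher and 4.37% lower). Of 23 tested TGF-beta target genes, 9 rose and 0 fell, with a median log2 change of 1.41 beside -0.01 over all genes. Tgfbi, an extracellular matrix protein induced by the ligand, rose by 1.49 ± 0.16 (SE; adjusted p = 3.71e-05), from 220, 258 and 245 CPM at E14.5 to 595, 583 and 850 at P21. Id3 and Id2, inhibitors of helix-loop-helix transcription factors that also respond to bone morphogenetic proteins, rose as well: Id3 from 30.1 ± 7.11 CPM (SD, n = 3) to 136 ± 46.8 (adjusted p = 0.000162) and Id2 from 176 ± 23.4 to 468 ± 158 (adjusted p = 0.00223). Pdgfa, a growth factor, rose by 2.17 ± 0.39 from a low 2.98 ± 0.768 CPM (SD, n = 3). With the fibroblast covariate 2 of the 23 were called, in a fit that called 3% of all genes. Leaving out single libraries gave 7 to 9, in fits that called 7.12% to 12.4% of all genes.

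Target genes were also called in the single steps. From E14.5 to P3, 3 of 23 rose (1.67% of all genes rose): Cdkn1c, a cell cycle inhibitor, with a log2 change of 2.53 ± 0.29 (SE; adjusted p = 0.000413, edgeR), Tgfbi and Id3. Cdkn1c then stood lower at P21 (39.2 ± 5.65 CPM, SD, n = 3) than at P3 (141 ± 46.4). Id2 rose from P3 to P10 by 1.43 ± 0.26 (adjusted p = 0.0286), and Tgfbi rose from P10 to P21 by 0.78 ± 0.16 (0.0326). From P21 to P56 the one target called was Klf10, an early response gene of the pathway, which rose by 0.85 ± 0.14 (0.0252).

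Of 19 tested genes known to depend on TGF-beta in microglia, 8 rose and 0 fell from E14.5 to P21, with a median of 0.52. C1qa, a complement subunit, rose from 1295 ± 64.4 CPM (SD, n = 3) to 5173 ± 137 (adjusted p = 3.07e-08, edgeR), and Fcrls rose with a log2 change of 0.61 ± 0.10 (SE; adjusted p = 0.00101). Several genes of this list are general macrophage genes, C1qa and Fcrls are also on the border macrophage list, and Sparc, another of the 8, is abundant in fibroblasts. Sparc measured 18.1, 14.2 and 98.3 CPM at E14.5 and 157, 120 and 123 at P56, and was at 553 to 1095 at P21. With the fibroblast covariate 4 of the 19 were called, against 3% of all genes.

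Upstream of the SMADs, calls were made in 3 lists over that span. Of 14 tested ligands other than Tgfb1, 3 rose and 1 fell. Gdf15, a stress-responsive member of the family, rose by 2.19 ± 0.38 (SE; adjusted p = 0.00161, edgeR). Tgfb3 rose from 0.0434, 1.39 and 3.79 CPM to 17.7, 51.5 and 23.2 (adjusted p = 0.016), and Gdf10 from 1.23 ± 1.48 (SD, n = 3) to 53.2 ± 24.9 (adjusted p = 0.00617). Inhba, an activin subunit, fell from 48, 36 and 67 counts to 0, 0 and 2 (adjusted p = 0.0331). From P10 to P21 Bmp2, a bone morphogenetic protein, had a log2 change of -1.22 ± 0.26 (adjusted p = 0.0429). With the fibroblast covariate, in which 3% of all genes were called, edgeR called 0 of the 14 ligands from E14.5 to P21.

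Of 18 genes of latency and activation, Mmp14 and Mmp2, matrix metalloproteinases, rose by 1.74 ± 0.36 and 2.68 ± 0.70 (SE) from E14.5 to P21. With the fibroblast covariate, which left 3% of all genes called, edgeR called 0 of the 18. Of 11 other receptors and co-receptors, 1 was called: Bambi, a decoy receptor without a kinase, rose by 2.29 ± 0.32 (adjusted p = 0.000301, edgeR), from 10.7, 12.3 and 11.9 CPM at E14.5 to 77.5, 56.8 and 35.8 at P21. With the fibroblast covariate 1 gene of that list was called.

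Inside the cell, 3 of 22 other SMADs and SMAD regulators rose over the same span and none fell: Pmepa1, which sequesters SMAD2 and SMAD3, by 1.61 ± 0.32 (SE; adjusted p = 0.00446, edgeR), the co-repressor gene Tgif1 by 0.75 ± 0.19 and the ubiquitin ligase gene Wwp1 by 0.68 ± 0.15. The median of this list was -0.27. Of 18 SMAD partners and co-repressors, 3 rose and 1 fell. The AP-1 family genes Atf3, Jund and Junb rose by 2.12 ± 0.27, 2.24 ± 0.30 and 0.75 ± 0.19, while Zeb2, a SMAD-binding repressor, had a log2 change of -0.97 ± 0.17 (adjusted p = 0.00165). Jun was lower at P3 than at E14.5, as Skil was, with a log2 change of -1.09 ± 0.20 (adjusted p = 0.0115). Of 18 genes of non-SMAD signalling, edgeR called 0 in any of the 6 tests.

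**Figure D5:**
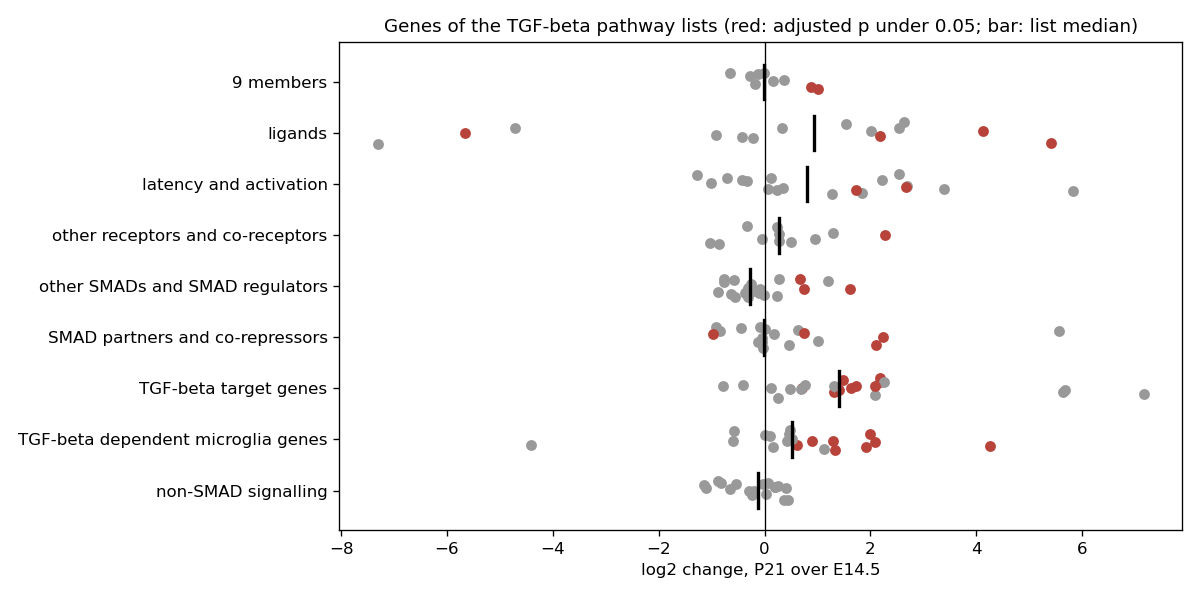
log2 change from E14.5 to P21 (horizontal axis) of each tested gene in the lists of the pathway (rows, points spread vertically for legibility); red marks an adjusted p under 0.05 and black bars the list median. The target genes have 9 red points, all above 0, with a median of 1.41, and the 9 members have 2.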

How the data were processed

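Bulk RNA-seq was done on sorted CD206+ dura mater cells. Per the labels' protocols, a SMARTer low-input kit gave the cDNA and Nextera XT the libraries, with no molecular identifiers named, so reads are not independent molecules. The deposited values were raw read counts per gene symbol, not normalized by the authors. Per the submitters' processing notes, bcl2fastq 2.18, STAR 2.7.8a and featureCounts 2.0.2 were used; the build, annotation and strand setting are not given in the sources used here. Exon lengths came from GENCODE M21, in which 93.5% of the symbols were found, and no member shares exon bases with another gene there.

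Counts were fitted with edgeR 4.0.16 (R 4.3.3) on all 15 libraries with age as the only term, TMM factors and the filterByExpr filter by age. The test for any age difference used the 12 libraries of E14.5 to P21. DESeq2 1.42.0 and limma 3.58.1 (voom) were alternatives, as were other scalings, filters, sets of libraries, covariates and leaving out each library. Standard errors and intervals come from the spread between libraries in the fit, with its t distribution. Scripts were tested on simulated data. The 9 members, the 8 pathway lists and the 16 marker lists were chosen with earlier results of these data known. Named list genes are up to 4 per list and comparison with the smallest adjusted p, some of which are not reported here; genes like a called member are the 3 with the highest r. None of the 15 pairs of libraries of one age agreed within sampling noise, by a chi-square on read counts. Since reads are not independent molecules, this does not show whether the libraries came from separate animals. No list was tested as a set.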

Additional observations from a re-analysis of the deposited data

How the results depend on the processing

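Over 54 results of single members and 909 refits, 838 kept their side of the threshold and, where the test has one, their direction. Only 6 of the 54 results were called, so most of these refits had no call to lose. Refits of the 6 called results lost the call 37 times. For Skil the call was kept 12 times and lost 4 from E14.5 to P3, and kept 13 and lost 3 from P10 to P21. It was kept 7 and lost 9 from E14.5 to P21, and kept 22 and lost 0 for any age difference. For Tgfbr2 it was kept 9 and lost 7 from E14.5 to P21, and kept 8 and lost 14 for any age difference. In 1 refit an uncalled result gained a call. None of the called results reversed, but the 2 from the test for any age difference have no direction to reverse. With the fibroblast covariate 0 members were called from E14.5 to P3, where 0.204% of all genes were called in place of 2.06%. From E14.5 to P21 the number fell to 0 with library totals only, where 15.3% of all genes were called. It was also 0 with only the libraries of those ages (11.3%) and with the fibroblast covariate (3%). For any age difference the number was 1 with library totals only (15.7% of all genes) and with all 15 libraries (10.2%). It was also 1 with the replicate block (11.1%) and with the fibroblast covariate (3.81%). Tgfbr2 was lost each time. From P10 to P21 DESeq2 called 2 members, in a fit that called 5.09% of all genes there, against 1.14% in the main fit. Leaving out each library gave 0 to 1 members called from E14.5 to P3, from P10 to P21 and from E14.5 to P21. It gave 0 to 0 in the other 2 steps and 1 to 2 for any age difference. Those fits called 0.816% to 1.27% of all genes from E14.5 to P3 and 0.193% to 1.09% from P10 to P21. They called 7.12% to 12.4% from E14.5 to P21 and 6.64% to 12.2% for any age difference. From P3 to P10 they called 0.134% to 0.262%, and from P21 to P56 0.236% to 0.64%. Library totals only moved the median of all genes by -0.31 from E14.5 to P21. In that fit Tgfbr2 changed by 0.70 (adjusted p = 0.0854, edgeR) and Skil by 0.56 (adjusted p = 0.182), and neither was called. The main fit gave 1.01 and 0.88. Scaling moves all genes alike, so these values are no separate support for the 2 results.

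Some uncalled changes changed sign. From E14.5 to P21 Tgfb1 was 0.0038 with RLE scaling, 0.0645 with the upper quartile, 0.0138 without a filter, 0.0193 with a filter of 5 CPM, 0.0685 with the replicate block, 0.1038 with voom and 0.0040 with DESeq2; Smad2 was 0.0583 with the fibroblast covariate; and Smad7 was -0.1739 with library totals, -0.3512 with the fibroblast covariate and -0.3548 with voom. Smad4 was -0.0877 from E14.5 to P3 with the fibroblast covariate, Smad3 was 0.0106 from P10 to P21 with voom and Smad7 was 0.0762 from P21 to P56 with voom. Leaving out single libraries gave, from E14.5 to P21, -0.4647 to 0.3023 for Ski, -1.1320 to 0.6389 for Smad7, -0.3756 to 0.3537 for Tgfb1 and -0.5418 to 0.0360 for Tgfbr1. It gave, from E14.5 to P3, -0.5524 to 0.2138 for Ski and -0.0078 to 0.7207 for Tgfb1, and from P3 to P10 -0.2454 to 0.0520 for Smad2 and -0.3574 to 0.1768 for Tgfbr1. From P10 to P21 it gave -0.6115 to 0.3009 for Smad3 and -1.5444 to 0.2739 for Smad7, and from P21 to P56 -0.1030 to 0.4104 for Ski and -1.0161 to 0.7542 for Smad7. The cause was not tested.

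The correlations showed no clear pairing of libraries by replicate number. Over 18 pairs with the same number the correlation of deviations was -0.0553 to 0.0618, beside -0.0615 to 0.0625 over pairs with different numbers. Of 12 libraries, 6 correlated best with a library of their own number. With the replicate block Tgfbr2 from E14.5 to P21 was 0.99 (adjusted p = 0.0146) and for any age difference its adjusted p was 0.0502, by edgeR. No paired analysis was possible for P56 because its numbers are shared with no other age. The wide intervals of Smad7 and Smad3 come with few reads (14 to 166 and 47 to 628 per library) and a large spread between libraries (median coefficient of variation 53.5% and 60.3%).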
